A study of Rattus norvegicus with 12 samples.

Results

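Kupffer cells are the resident macrophages of the liver. They lie in the sinusoids, where they take up bacteria, debris and aged red blood cells from portal blood, and they are marked in rodents by scavenger and complement receptors. The liver lobule through which this blood runs is zoned. Hepatocytes near the portal tract carry out gluconeogenesis, urea synthesis and amino acid breakdown, and those around the central vein make glutamine, bile acids and cytochrome P450 enzymes.

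Spots rich in Kupffer cell transcripts were taken from 2 Visium sections, A and B, of liver from healthy male Wistar rats. A Visium spot is a small area of a tissue section whose RNA is captured together, so it holds several cells of different types. Hepatocyte RNA was present throughout, and 15 general hepatocyte genes alone gave 2043 and 2031 of every 10000 UMIs in the Kupffer-rich spots of sections A and B. No treatment or genotype was compared, the age of these rats was not given in the sources used here, and the labels do not tie a section to an animal, while the paper speaks of 2 rats. Nuclei from whole liver of 4 other healthy male rats, 2 of the DA (Dark Agouti) and 2 of the LEW (Lewis) strain, adults matched for age, served to read where a gene is expressed, in strains other than that of the sections. Only spots with at least 5000 unique molecular identifiers (UMIs, each 1 captured transcript) were kept, 2260 of 2437 in section A and 2196 of 2404 in section B. The spots were chosen by 7 genes. The UMIs of Cd5l, Marco, Clec4f, Vsig4, C1qa, C1qb and C1qc were summed per 10000 UMIs of the spot, and the 10% of spots with the highest sum in each section, 226 in A and 219 in B, were called Kupffer-rich. They are 445 of the 4841 spots of both sections. The 30% with the lowest sum, 678 and 658 spots, were called Kupffer-poor. Spots of a section are not replicates, so UMIs were added up over each set of spots and the section was the unit, with n = 2.

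The sum in Kupffer-rich spots had a median of 16.9 UMIs per 10000 in section A and 19.1 in section B, against 3.87 and 4.15 in Kupffer-poor spots. The 5 spots just inside the upper limit in section A lay between 13.33 and 13.38 and the 5 just outside between 13.21 and 13.32. In section B these values were 14.82 to 14.87 inside and 14.63 to 14.80 outside. The limit thus divides a continuous range, and Kupffer-rich is a band of it and not a type of tissue. Kupffer-rich and Kupffer-poor spots were of similar depth in section A, with medians of 14461.5 and 14302 UMIs, and in section B the Kupffer-rich spots were deeper, at 16520 against 14343.5. Mitochondrial genes took 3.42% of the UMIs of Kupffer-rich and 3.58% of those of Kupffer-poor spots in section A, and, for section B, 2.69% and 2.88%. The sections shared 1568 spot barcodes, which on Visium name positions of the array, and 20 of these were Kupffer-rich in both.

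Of the 7 genes that chose the spots, Marco, a scavenger receptor that binds bacteria and particles, varied most. Its level was 4.05 UMIs per 10000 in the Kupffer-rich and 0.340 in the Kupffer-poor spots of section A, and 5.30 and 0.355 in section B. Since Marco chose the spots, these values describe the choice and carry no test. It made up 20.8% of the UMIs of the 7 genes in Kupffer-rich spots of section A and 23.5% in section B, against 9.11% and 8.85% in Kupffer-poor spots. Within the Kupffer-rich spots the share rose further, from 12.8% in those with the lower to 25.4% in those with the higher scores in section A and from 16.5% to 27.6% in section B. The other 6 genes differed by less between the sets of spots, by 4.24 to 5.87 times in section A and 4.42 to 6.41 times in section B, against 11.9 and 14.9 times for Marco.

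To give each gene a value in spots that it had not chosen, the spots were ranked again by the other 6 genes. Marco was then 7.06 times higher in the top 10% than in the lowest 30% in section A and 9.47 times higher in section B. Cd5l, a protein that macrophages secrete, was 3.50 and 4.29 times higher and Vsig4, the complement receptor that takes up C3-coated particles, 3.15 and 3.41 times. Clec4f, a lectin of rodent Kupffer cells, was 2.63 and 2.72 times higher. The 3 chains of C1q, which starts the classical complement cascade, were 2.61 to 2.72 times higher in section A and 2.94 to 3.02 times in section B. Each of the 7 genes thus went with the other 6 in both sections, with the order Marco, Cd5l, Vsig4 at the top in both.

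The promoters of 3 of the 7 genes, Marco, Cd5l and Clec4f, are shown for the reader to see the sequence beside the levels. The 7 genes move together over the spots. RefSeq promoters of build GRCr8, of 300 bases each, were at hand for 6 of the 7 genes, without C1qc. Capitals mark the letters GAGGAA, or TTCCTC on the other strand, the core of the sites bound by the myeloid factor PU.1. The Marco promoter is at chr13:34201206-34201505 on the minus strand, that of Cd5l at chr2:175088665-175088964 on the plus strand and that of Clec4f at chr4:117696358-117696657 on the minus strand.
Marco: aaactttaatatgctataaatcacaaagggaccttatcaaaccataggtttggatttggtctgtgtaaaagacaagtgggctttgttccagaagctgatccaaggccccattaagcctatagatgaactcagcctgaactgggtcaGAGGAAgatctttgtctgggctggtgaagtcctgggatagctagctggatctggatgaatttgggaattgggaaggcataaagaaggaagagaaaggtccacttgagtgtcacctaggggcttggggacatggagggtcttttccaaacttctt
Cd5l: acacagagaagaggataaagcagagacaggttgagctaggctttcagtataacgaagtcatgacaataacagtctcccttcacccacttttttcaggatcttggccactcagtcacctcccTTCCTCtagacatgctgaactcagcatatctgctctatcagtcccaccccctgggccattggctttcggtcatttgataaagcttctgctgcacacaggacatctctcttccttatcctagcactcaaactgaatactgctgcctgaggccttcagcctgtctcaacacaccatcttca
Clec4f: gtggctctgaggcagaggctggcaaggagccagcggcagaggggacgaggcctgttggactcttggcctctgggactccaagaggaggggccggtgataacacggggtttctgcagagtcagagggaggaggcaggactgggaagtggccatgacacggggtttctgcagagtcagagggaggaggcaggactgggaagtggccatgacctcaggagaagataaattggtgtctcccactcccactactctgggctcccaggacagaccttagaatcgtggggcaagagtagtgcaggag
The letters occurred in 3 of the 6 promoters, those of Cd5l, Marco and C1qb, and in 27.6% of all 33469 rat promoters in the table. A match is only a run of letters, and its absence from the Clec4f window says nothing of the factor.

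The Kupffer-rich spots lay on the periportal side of the lobule. A zone score was formed for each spot from genes that the study names, as the mean log2 level, with 1 added, of 7 genes on the portal side (Orm1, Srd5a1, Gls2, Arg1, Ass1, Hmgcs1, Tf) less the mean of 4 on the central side (Glul, Cyp2e1, Oat, Sult1e1). None of these chose the Kupffer-rich spots. Cut into 3 equal zones by this score, the most periportal zone held 164 of the 226 Kupffer-rich spots of section A, or 72.6% (exact 95% binomial interval 66.3% to 78.3%), and 160 of the 219 of section B, or 73.1% (66.7% to 78.8%). The pericentral zone held 3.98% (1.84% to 7.42%) and 2.74% (1.01% to 5.87%) of them. Of the Kupffer-poor spots 17.7% and 16.4% were in the periportal and 47.1% and 50.6% in the pericentral zone. The intervals cover counting error only, and neighbouring spots are not independent. Each section gave 1 share for each zone, and no test was made. When only C1qa, C1qb and C1qc ranked the spots, the periportal shares were 59.7% and 61.6%.

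Along 10 equal steps of the zone score, Kupffer-rich spots rose from 0.885% of the most pericentral spots to 33.2% of the most periportal spots in section A and from 0.909% to 32.4% in section B. The rise was not even. It stayed at or under 0.909% over the 3 most pericentral steps in both sections and passed 20% only in the 2 most periportal steps. The plot of both sets of spots along the zone score shows that both shares cross over between the seventh and the ninth step.

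**Figure D1:**
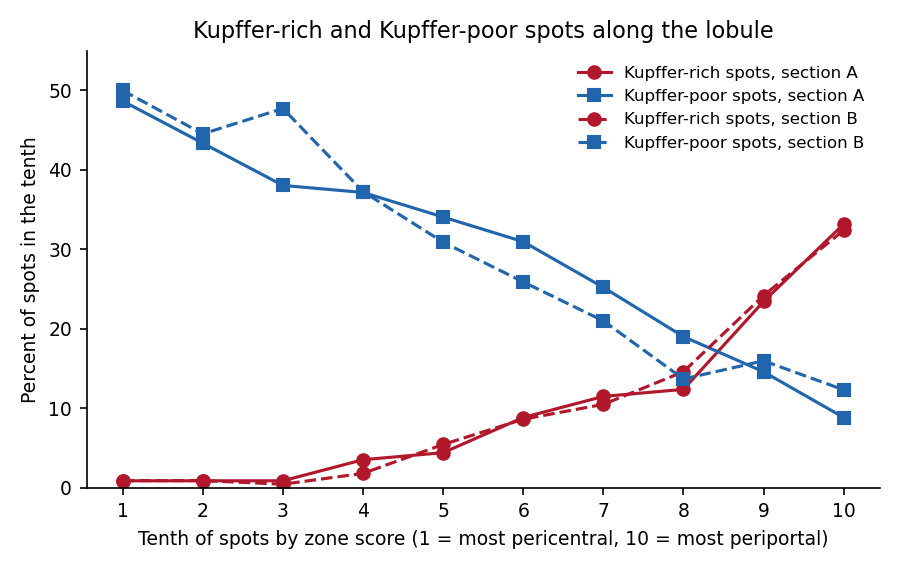
Percent of spots that were Kupffer-rich (red) or Kupffer-poor (blue) in 10 equal steps of the zone score, from the most pericentral (1) to the most periportal (10), in section A (solid) and B (dashed). Kupffer-rich spots reach 33.2% and 32.4% in the last step, where Kupffer-poor spots are down to 8.85% and 12.3%.

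The zone score also allowed a test of the 7 genes that did not use the choice of Kupffer-rich spots. The paper had already placed the zone score genes along the main axes of variation of these same sections. It had also reported Cd5l, Marco and Clec4f on the periportal side. The direction of these genes was thus known from the same data, and the test is not independent of that report. UMIs were summed over the 30% most periportal and the 30% most pericentral spots of each section and compared with the quasi-likelihood test of edgeR, with section as a block. All 7 genes were higher in periportal spots with both edgeR and DESeq2, beside 7.43% of 9418 genes tested that were higher there with edgeR and 6.6% that were lower. Marco had 1.67 UMIs per 10000 in periportal and 0.480 in pericentral spots of section A, and 2.24 and 0.443 in section B. The log2 fold change of Marco was 2.08 ± 0.12 (SE, n = 2 sections, edgeR adjusted p = 0.000382). For Cd5l it was 1.20 ± 0.05 and for Vsig4 1.08 ± 0.07. Clec4f had 2.02 and 1.21 UMIs per 10000 in section A and, for section B, 2.28 and 1.36, a log2 fold change of 0.75 ± 0.04 (edgeR adjusted p = 4.38e-82). The chains C1qa, C1qb and C1qc stood at 0.80, 0.75 and 0.81. The fold change of Marco was thus 3.47 and 5.07 in the sections and that of Clec4f 1.67 and 1.68. The p-values of Marco and Clec4f do not rank their support, since the test did not give both genes the same spread. Per UMI of Clec4f, Marco gave 0.825 UMIs in periportal and 0.397 in pericentral spots of section A, and 0.984 and 0.327 in section B. The ratio differed 2.08-fold between the zones in section A and 3.01-fold in section B, in the same direction. This difference between the genes was not tested over samples. Whether spots held more Kupffer cells or more RNA per Kupffer cell cannot be told apart in these data, here and in every comparison of spots.

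**Figure D2:**
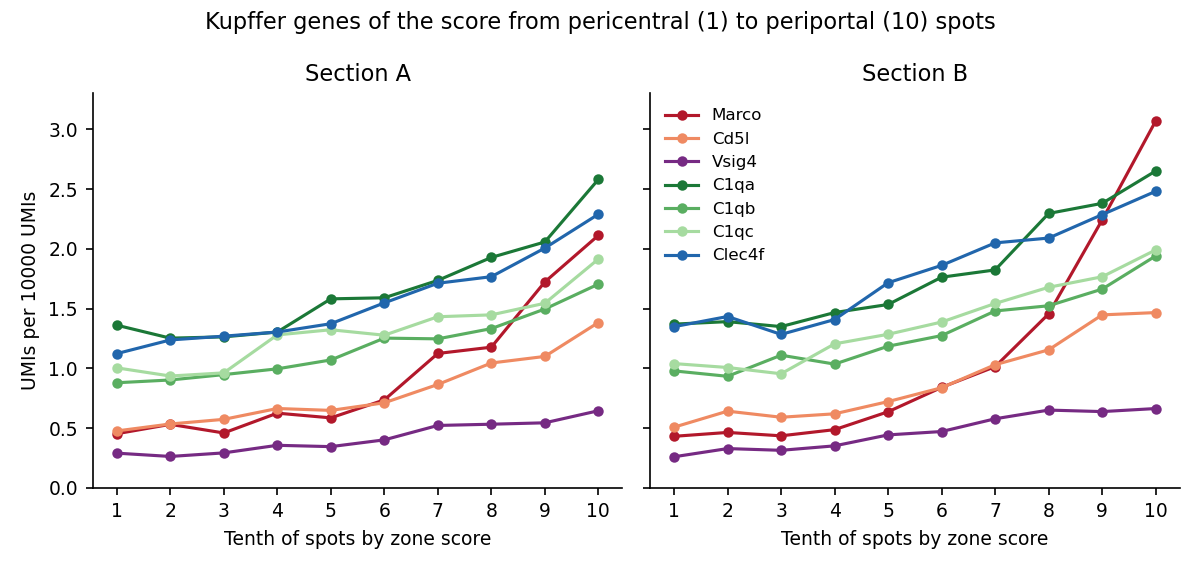
UMIs per 10000 UMIs of the 7 Kupffer genes in 10 equal steps of the zone score, from the most pericentral (1) to the most periportal (10), in sections A and B. Marco starts at 0.453 and 0.431, below Clec4f at 1.12 and 1.35, and ends at 2.11 and 3.07, which in section B is the highest of the 7.

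Across all other genes, Kupffer-rich and Kupffer-poor spots were compared in the same way, with the 7 genes left out. Of 8951 genes tested, 576 were higher in Kupffer-rich spots and 504 lower at an adjusted p under 0.05, and 1078 of these 1080 had the same direction in both sections. These are 6.44% and 5.63% of the genes tested. With 1 residual degree of freedom, edgeR gave all 8951 genes a shared spread between the sections, a biological coefficient of variation of 1.91%, and none of their own. Its p-values are thus close to counting error for all but abundant genes, and a gene whose sections disagree can be called. DESeq2, whose standard errors were larger, called 143 genes higher and 124 lower, each also called by edgeR, or 1.60% and 1.39% of the genes tested. Without the TMM scaling edgeR called 548 genes higher and 285 lower. In what follows, rose and fell refer to the edgeR test, and a gene that DESeq2 did not call is named as such.

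Other macrophage genes rose with the 7. Of 9 further Kupffer cell genes tested 7 rose and none fell, with a median log2 fold change of 1.29, and of 13 general macrophage genes 12 rose and 1 fell, with a median of 1.11, against 0.0014 over all genes. DESeq2 called 6 and 8 of those that rose. Fcna, the macrophage ficolin, had 0.935 and 1.11 UMIs per 10000 in the Kupffer-rich spots of sections A and B and 0.294 and 0.342 in the Kupffer-poor spots, a log2 fold change of 1.65 ± 0.08 (edgeR adjusted p = 2.87e-85). Cd163, the receptor for haemoglobin bound to haptoglobin, stood at 0.327 and 0.513 against 0.131 and 0.165, and its log2 fold change was 1.47 ± 0.12. Hmox1, which breaks down heme, had a log2 fold change of 1.42 ± 0.12, Folr2, a folate receptor, 1.32 ± 0.17, Cd68, a lysosomal protein of macrophages, 1.40 ± 0.09, and Csf1r, the receptor for the macrophage growth factor, 1.28 ± 0.11. For each of these 6 genes both Kupffer-rich values lay above both Kupffer-poor values. They were named for a change called in the same direction in both sections. How many of all genes tested had such values was not counted, so this adds no support. Ctss, a cathepsin of antigen-presenting cells, had the largest change of these lists at 2.43, on 66 UMIs over both sections. Id3 and Nr1h3, both regulators of Kupffer cell identity, did not pass the test, with log2 fold changes of 0.14 and 0.0025. Cd14, the coreceptor for endotoxin, was the one gene of these lists that fell. It was also lower in periportal than in pericentral spots, with a log2 fold change of -0.39 that edgeR called and DESeq2 did not. It had 0.572 and 0.546 UMIs per 10000 in Kupffer-rich and 0.696 and 0.704 in Kupffer-poor spots, a log2 fold change of -0.36 ± 0.08 that DESeq2 did not call (adjusted p = 0.57).

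Hepatocyte genes of both zones differed. Of 20 periportal hepatocyte genes 15 rose and none fell, 14 of them also with DESeq2, and of 14 pericentral genes tested 13 fell and none rose, 10 of them also with DESeq2. The median log2 fold change was 0.26 for the periportal and -0.72 for the pericentral genes. The pericentral genes Slc1a2, Tbx3 and Lgr5 were too low to be tested. The scatter of the list genes by section shows all pericentral genes tested below zero in both sections and the periportal genes above it, but for Cps1 in section B and Cyp2f4 in section A.

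**Figure D3:**
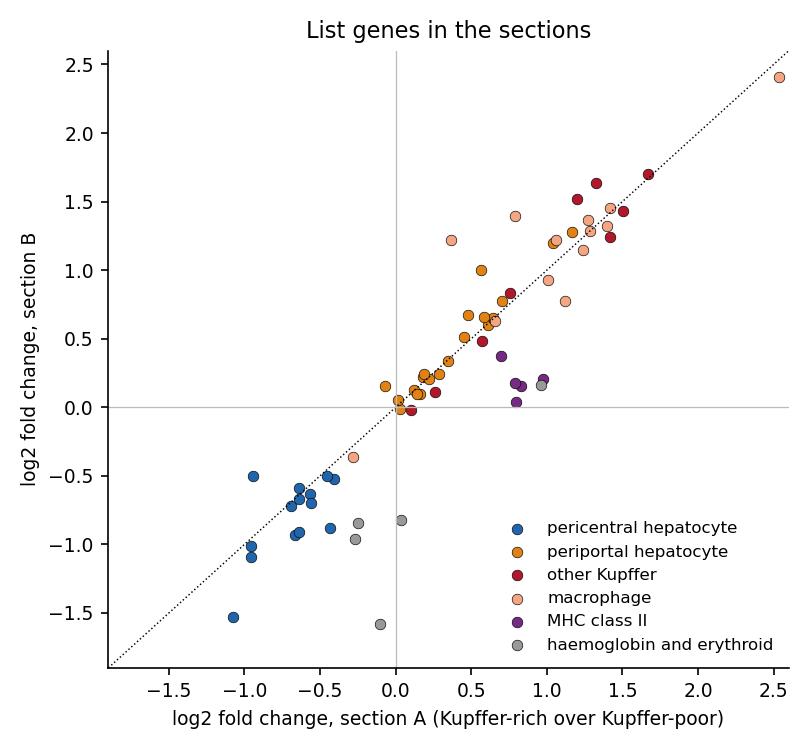
Log2 fold change of Kupffer-rich over Kupffer-poor spots in section A (horizontal) and section B (vertical) for genes of 6 lists, with 1 point a gene and the dotted line at equal values. Pericentral genes lie below zero and macrophage genes, but for Cd14 in both sections and Nr1h3 in section B, above it, while MHC class II and haemoglobin genes lie off the line.

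Among the periportal genes, Srd5a1, a steroid 5-alpha-reductase, had 0.961 and 1.09 UMIs per 10000 in the Kupffer-rich spots of sections A and B and 0.428 and 0.451 in the Kupffer-poor spots, with a log2 fold change of 1.19 ± 0.08 (edgeR adjusted p = 1.6e-51). Sds, which breaks down serine for gluconeogenesis, stood at 1.32 and 1.51 against 0.640 and 0.657, a change of 1.08 ± 0.06. Etnppl, a phosphoethanolamine lyase, stood at 0.634 and 0.866 against 0.429 and 0.433, a change of 0.76 ± 0.08. Orm1, an acute-phase protein of plasma, had 13.4 and 14.2 against 8.24 and 8.26, a change of 0.70 ± 0.03. Pck1, the rate-limiting enzyme of gluconeogenesis, had 22.5 and 23.7 against 14.7 and 15.6, a change of 0.57 ± 0.02. Urea cycle genes changed by little. Ass1 and Arg1 rose by 0.16 and 0.17 on the log2 scale, and Cps1, Otc and Asl, the other enzymes of the cycle tested, did not pass the test, at -0.030, 0.077 and 0.090.

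Of the pericentral genes, Cyp7a1, the rate-limiting enzyme of bile acid synthesis, changed most. It had 0.283 and 0.209 UMIs per 10000 in Kupffer-rich and 0.598 and 0.606 in Kupffer-poor spots, a log2 fold change of -1.34 ± 0.11 (edgeR adjusted p = 1.5e-33). Oat, which makes glutamate from ornithine, stood at 2.50 and 2.33 against 4.87 and 4.95, a change of -1.06 ± 0.04. Axin2, a feedback target of Wnt signalling, changed by -1.06 ± 0.26 on few UMIs, which DESeq2 did not call. Glul, the glutamine synthetase of the hepatocytes next to the central vein, stood at 0.782 and 0.646 against 1.24 and 1.23, a change of -0.84 ± 0.07. Cyp2e1, a P450 that oxidises ethanol, had 10.9 and 11.8 against 17.7 and 19.4, a change of -0.75 ± 0.03. For these genes, too, the values of Kupffer-rich spots did not overlap those of Kupffer-poor spots, which again was not counted over all genes tested.

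The changes of the hepatocyte zone genes were graded. Spots were put into 4 bands of the Kupffer score, the lowest 30%, the next 30%, the next 30% and the top 10%. All 13 pericentral genes that fell did so at each step in both sections. Of the 15 periportal genes that rose, 13 did so at each step in both sections, all but G6pc and Hmgcs1. Macrophage genes kept the order less often. Of the 7 other Kupffer genes that rose 4 did so at each step in both sections, and of the 12 general macrophage genes 8. The share over all genes was not counted. All of these genes had already been called between the lowest 30% and the top 10%. The lists were not matched for level, and counting error weighs more on scarce genes, so these counts do not compare the lists. Oat went from 4.87 over 4.19 and 3.39 to 2.50 UMIs per 10000 in section A and from 4.95 over 4.11 and 3.41 to 2.33 in section B.

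**Figure D4:**
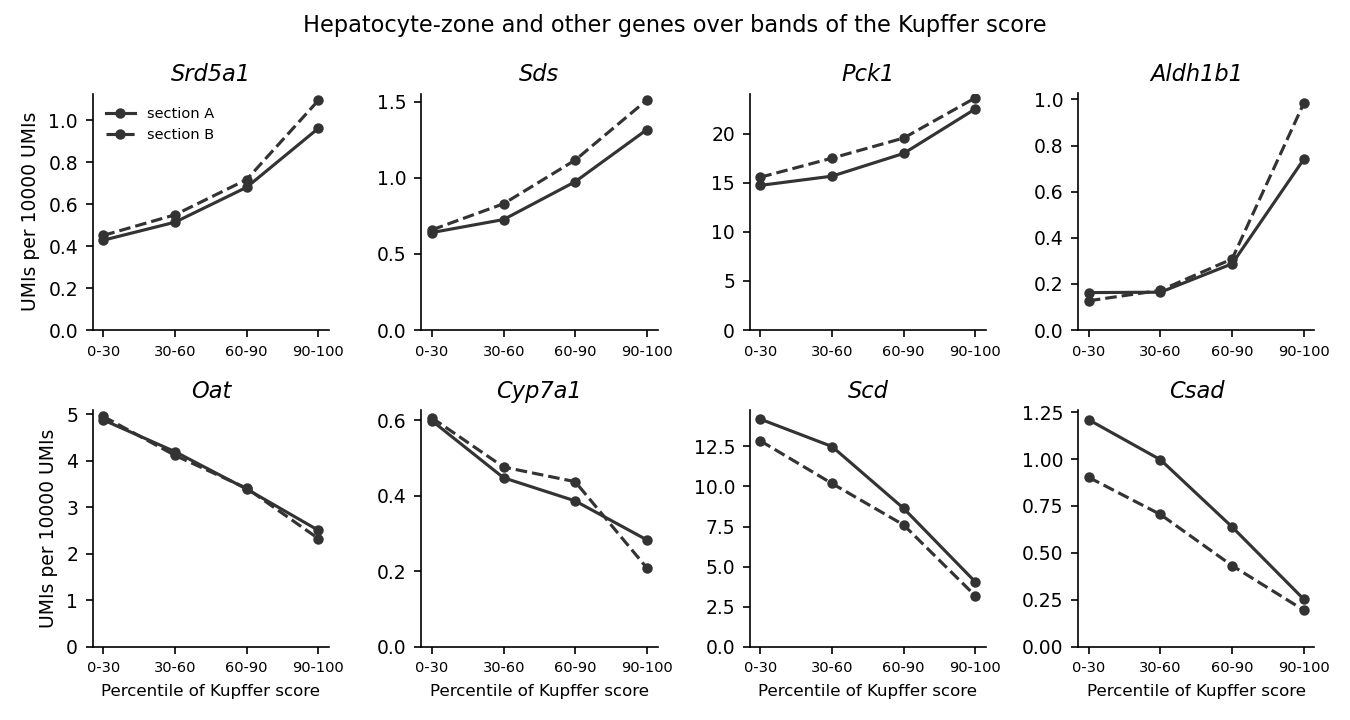
UMIs per 10000 UMIs of 8 genes in 4 bands of spots by percentile of the Kupffer score, in section A (solid) and B (dashed). Srd5a1, Sds and Pck1 rise and Oat, Cyp7a1, Scd and Csad fall at each step, while Aldh1b1 is at 0.287 and 0.308 below the top 10% and reaches 0.740 and 0.983 in the top 10%.

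The genes that rose were also sorted by where they are expressed. To find where a gene is expressed, nuclei of the 4 DA and LEW rats were sorted into 379 Kupffer-like, 566 endothelial-like, 345 mesenchymal-like and 11094 other nuclei by their markers. A gene was taken as macrophage when its level in Kupffer-like nuclei was at least 2 times that in the other 3 sets, and as higher elsewhere when another set was higher by any margin. By this reading 133 of the 576 genes that rose were macrophage, 319 higher elsewhere and 117 in between, with 7 too low in nuclei. Of all 8951 genes tested 250 were macrophage, 6355 higher elsewhere and 2320 in between, with 26 too low, so that macrophage genes were a larger and genes higher elsewhere a smaller share of the genes that rose than of those tested. Cholangiocyte-like and lymphoid-like nuclei were too few to be counted, at 9 and 2. The rule as planned counted these classes and set no 2-fold margin, and by it 166 were macrophage and 403 not. The reading given first thus departs from the plan. Cd163 and Csf1r, which also helped to define the Kupffer-like nuclei, were macrophage in part by that choice. Hepatocyte transcripts were found in every set of nuclei, with Orm1 at 295 CPM (UMIs scaled to a common total of all genes) in Kupffer-like and 491 in other nuclei, so a like level in all sets does not name a source.

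Aldh1b1, a mitochondrial aldehyde dehydrogenase, rose most among the genes called in the same direction in both sections with at least 100 UMIs over the 4 sums. It had 0.740 and 0.983 UMIs per 10000 in the Kupffer-rich spots of sections A and B and 0.162 and 0.127 in the Kupffer-poor spots, a log2 fold change of 2.54 ± 0.10 (edgeR adjusted p = 1.2e-129). Its level in nuclei was low and alike, at 5.23 CPM in Kupffer-like, 4.77 in endothelial-like, 7.88 in mesenchymal-like and 6.07 in other nuclei, on 8 UMIs in the Kupffer-like and 10 in the mesenchymal-like set. Ccl21, a chemokine that guides lymphocytes and dendritic cells, stood at 0.265 and 0.244 against 0.0435 and 0.0473, a change of 2.44 ± 0.18, and was at or under 1.58 CPM in every set of nuclei, on at most 17 UMIs. The source of both genes was thus not shown by the nuclei. Spink1, a trypsin inhibitor, had 1.06 and 0.766 against 0.278 and 0.282, a change of 1.66 ± 0.09, and Gjb2, the gap junction protein connexin 26, 0.587 and 0.635 against 0.209 and 0.187, a change of 1.59 ± 0.11. Cyp4a8 and Cyp4a2, which hydroxylate fatty acids, rose by 1.38 and 1.37 on the log2 scale, and Wfdc21 by 1.44. Spink1, Gjb2, Cyp4a8, Cyp4a2 and Wfdc21 were each highest in the other nuclei, the set with the most Orm1. Rats differed widely in some of these levels, and Cyp4a2 ranged from 49.2 to 1308 CPM in Kupffer-like and from 98.4 to 2435 in other nuclei. Abcg5 and Abcg8, the subunits of the transporter that exports sterols into bile, rose by 1.89 ± 0.18 and 1.37 ± 0.26, the latter without a DESeq2 call. Lpl, lipoprotein lipase, rose by 1.36, was highest in mesenchymal-like nuclei and was not called by DESeq2.

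Macrophage and other leukocyte genes were also among the 10 such genes that rose most, beside Aldh1b1, Ccl21, Abcg5 and Vwf. Gpnmb, a glycoprotein of lysosome-rich macrophages, rose by 2.05 ± 0.27 on the log2 scale. Fgl2, Ly6al, LOC691141 and AC114233.2 rose by 1.95, 1.89, 1.69 and 2.02, and each was at least 4 times higher in Kupffer-like than in the other sets of nuclei, though Ly6al only on 35 UMIs and from 0 to 81.0 CPM over the rats. Plac8, which many leukocytes express, rose by 1.69 ± 0.17 and stood at 33.3 CPM in Kupffer-like and 31.0 in endothelial-like nuclei. By the planned rule, which also counts the few cholangiocyte-like and lymphoid-like nuclei, Fgl2 and Plac8 were not macrophage genes.

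Csad and Scd were among the 10 genes that fell most by the same rule. Csad, which makes the precursor of taurine, had 0.254 and 0.195 UMIs per 10000 in the Kupffer-rich and 1.21 and 0.902 in the Kupffer-poor spots, a log2 fold change of -2.27 ± 0.10 (edgeR adjusted p = 1.44e-119). Scd, which makes monounsaturated fatty acids, had 4.05 and 3.18 against 14.2 and 12.8, a change of -1.95 ± 0.03. Pnpla3, a lipase of lipid droplets, stood at 0.212 and 0.190 against 0.687 and 0.659, a change of -1.78 ± 0.11, and Fmo1, a flavin monooxygenase, at 0.369 and 0.304 against 1.07 and 1.05, a change of -1.70 ± 0.09. The unnamed transcript AABR07000398.1 had 2.64 and 1.51 against 9.12 and 4.53 and so differed between the sections within each set of spots. Coch, Dpp6, Tenm2, AABR07048482.1 and AABR07048463.1 completed the list, with changes of -2.28, -1.84, -1.69, -2.16 and -1.77 on few UMIs. Of these only AABR07048463.1 was called by DESeq2. All 10 genes were also lower in periportal than in pericentral spots, and all but AABR07000398.1 passed the edgeR test there. The log2 fold change between zones was -2.62 for Csad, -1.62 for Scd, -1.13 for Pnpla3 and -1.86 for Fmo1. It ranged from -0.47 for AABR07000398.1 to -2.71 for AABR07048463.1.

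Since Kupffer-rich spots were mostly periportal, the comparison was repeated within the 3 zones of each section, as an alternative chosen after the data had been seen. It compared Kupffer-rich with Kupffer-poor spots inside the same zone and section, over 12 sums, of which the pericentral Kupffer-rich ones held only 9 and 6 spots. The 3 zones of a section were counted here as separate pairs, with 5 residual degrees of freedom from 2 sections, so the SEs and p-values within zones are too small for n = 2 sections. Of 6881 genes tested, 188 rose and 157 fell, or 2.73% and 2.28%. Of the genes that rose over all zones, 185 also rose within zones, and of those that fell, 152 also fell. The median log2 fold change of the periportal list went from 0.26 to 0.054 and that of the pericentral list from -0.72 to -0.26. Within zones 8 periportal genes rose, and of the pericentral genes 7 fell and 1, Glul, rose. Both lists hold genes of the zone score, so their medians and counts are partly bound to the way the zones were cut. For the other Kupffer and the general macrophage genes the medians were 1.25 and 1.01, near those over all zones. None of these genes, and so not Cd14 either, was called lower within zones. A zone is broad, so spots of 1 zone still differ in position.

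Of the genes named above, Srd5a1 had a log2 fold change of 0.43 ± 0.10 within zones and Sds one of 0.61 ± 0.08. Cyp7a1 was at -0.26 ± 0.15 and did not pass the test (edgeR adjusted p = 0.502). Oat was at -0.19 ± 0.06. Scd was at -1.32 ± 0.05, Csad at -1.14 ± 0.13, Pnpla3 at -1.29 ± 0.14 and Fmo1 at -0.93 ± 0.12, so that these fell within zones as well. Aldh1b1 was at 1.92 ± 0.14, Ccl21 at 1.79 ± 0.24 and Spink1 at 1.15 ± 0.11, and each still rose. Glul turned its sign, from -0.84 over all zones to 0.83 ± 0.10 within them (edgeR adjusted p = 1.18e-14). Glul and the other 10 genes of the zone score set the zones, so their values within zones are bound to the way the zones were cut. The plot of fold changes over all zones and within zones shows these genes side by side.

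**Figure D5:**
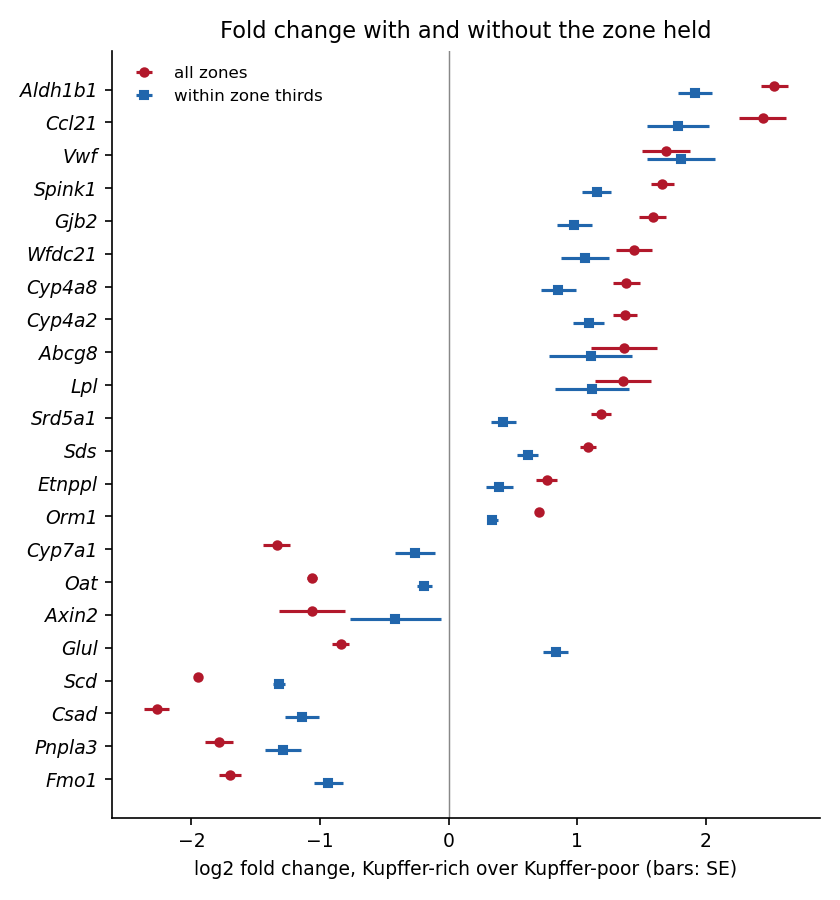
Log2 fold change of Kupffer-rich over Kupffer-poor spots for the 10 leading genes whose level was not highest in Kupffer-like nuclei (Aldh1b1 and Ccl21 on few UMIs there) and for periportal, pericentral and falling genes, over all zones (red) and within zones (blue), with bars of 1 SE. Vwf keeps its value, at 1.69 and 1.81, Cyp7a1 moves from -1.34 to -0.26, and Glul changes sign.

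Blood vessel genes were split. Vwf, the clotting factor of larger vessels, had 0.221 and 0.166 UMIs per 10000 in Kupffer-rich and 0.0504 and 0.0654 in Kupffer-poor spots, a log2 fold change of 1.69 ± 0.19 (edgeR adjusted p = 1.14e-17), and within zones it stood at 1.81. Between periportal and pericentral spots Vwf did not pass the test, with a log2 fold change of 0.21 (edgeR adjusted p = 0.394). Other genes that rose in Kupffer-rich spots did pass it. Ccl21, Aldh1b1, Gjb2, Abcg5 and Spink1 were higher in periportal spots by 2.22, 1.99, 1.94, 1.85 and 1.63 on the log2 scale, and Wfdc21, Cyp4a8 and Cyp4a2 by 1.39, 1.38 and 1.26. Ltbp4, a binding protein of latent TGF-beta, rose by 1.13 ± 0.13 and Cdh5, the cadherin of endothelial junctions, by 0.56 ± 0.13, the latter without a DESeq2 call. In nuclei Ltbp4 stood at 53.1 CPM in endothelial-like, 33.3 in Kupffer-like and 32.2 in other nuclei, so its source was not shown by them. Rspo3, the Wnt enhancer of the central vein endothelium, fell by 1.26 on the log2 scale, on few UMIs and without a DESeq2 call. Of 15 sinusoidal endothelial genes tested 2 rose, 3 fell and 10 did not pass the test, with a median of -0.10. Lyve1, a hyaluronan receptor of sinusoidal endothelium, had 0.348 and 0.282 in Kupffer-rich and 0.542 and 0.594 in Kupffer-poor spots, a change of -0.89 ± 0.10, and Aqp1, a water channel, rose by 0.77 ± 0.11. Stab2, Stab1, Clec4g, Dnase1l3 and Flt4 were too low to be tested.

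Matrix and portal tract genes were split as well. Mgp, an inhibitor of calcification made by fibroblasts and muscle of vessels, had 0.260 and 0.282 UMIs per 10000 in Kupffer-rich and 0.123 and 0.110 in Kupffer-poor spots, a log2 fold change of 1.18 ± 0.15. Of 7 portal fibroblast and muscle genes tested 3 rose, 2 fell and 2 did not pass the test, with a median of 0.89. Dpt, a matrix protein of this list, gave 84.2% and 83.9% of its summed level in Kupffer-rich spots and was highest in the other nuclei, at 555 CPM against 355 in mesenchymal-like nuclei. The summed level was 0.971 times that of Kupffer-poor spots in section A and 0.955 times in section B with Dpt, and 1.078 and 1.105 times without it. Col3a1, a fibrillar collagen, stood at 0.672 and 0.768 against 0.905 and 0.916, a change of -0.37 ± 0.07 without a DESeq2 call. Gsn, which cuts actin filaments, rose by 1.24 ± 0.19 without a DESeq2 call. Of 11 stellate cell genes tested 2 rose, 3 fell and 6 did not pass the test, with a median of 0.047, and the summed level of the list was 0.972 and 0.957 times that of Kupffer-poor spots. Ecm1 fell by 0.61 ± 0.05 on the log2 scale, and Lrat, which stores vitamin A as ester, and Pth1r fell by 0.51 and 0.39 without a DESeq2 call. Of 4 cholangiocyte genes tested 3 rose, all on few UMIs or by little and none with a DESeq2 call, and Epcam, the epithelial marker of bile ducts, did not pass the test at 0.31. Sox9, Krt19, Krt7, Cftr and Cldn7 were too low to be tested. Of the Kupffer-rich spots 25.7% in section A and 22.8% in section B were also among the top 10% for the sum of Vwf, Ltbp4, Mgp and Spp1, against 8.41% and 7.75% of the Kupffer-poor spots. Vwf, Ltbp4 and Mgp had each been called higher in these same spots, so the overlap restates those calls and adds no support. The part that vessels or portal tracts of a spot play in the other differences was not tested.

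Some genes listed for leukocytes other than Kupffer cells were higher. Of 8 T and NK cell genes tested 4 rose and none fell, with a median log2 fold change of 0.92, and DESeq2 called 1 of them, while Cd3e, Cd3d, Cd3g and Cd2, which define T cells, were too low to be tested. Ccl5, a chemokine of T and NK cells, had 0.557 and 0.415 UMIs per 10000 against 0.213 and 0.195, a change of 1.21 ± 0.11. The summed level of the 12 genes of this list was 2.38 times higher in Kupffer-rich spots in section A and 1.85 times in section B, and without Ccl5, its most abundant gene, 2.12 and 1.59 times. Gzma and Prf1, which cytotoxic cells use to kill, rose by 1.26 and 1.14 without a DESeq2 call. In nuclei both were highest in the Kupffer-like set, at 9.15 and 12.4 CPM on 14 and 19 UMIs. Ccl5 stood at 25.5 CPM in Kupffer-like and 28.0 in endothelial-like nuclei. With only 2 lymphoid-like nuclei, the nuclei do not show which leukocytes these genes came from. The only B and plasma cell gene tested, Xbp1, did not pass the test. That list held only 12 UMIs in Kupffer-rich and 38 in Kupffer-poor spots of section A and, for section B, 8 and 34, too few for a ratio to be read. Of 5 monocyte and neutrophil genes tested 2 rose, 1 of them also with DESeq2, and none fell. The part of other leukocytes in the macrophage gene values was not tested.

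The MHC class II genes and haemoglobin differed between the sections. All 5 class II genes tested rose with edgeR and none with DESeq2. Their median log2 fold change was 0.46 over all zones and 0.85 within zones, where all 5 rose as well. Between the zones they went the other way, with log2 fold changes of periportal over pericentral spots from -0.49 for RT1-Bb to -0.72 for RT1-Ba, all past the edgeR test and those of Cd74, RT1-Db1 and RT1-Ba past that of DESeq2. Cd74, the invariant chain, had 1.82 UMIs per 10000 in the Kupffer-rich and 1.02 in the Kupffer-poor spots of section A but 1.31 and 1.18 in section B, and the summed level of the list was 1.76 times higher in section A and 1.15 times in section B. Hba-a2, a haemoglobin chain of red blood cells, had 8.38 against 9.97 UMIs per 10000 in section A and 5.98 against 10.7 in section B. Its log2 fold change of -0.58 ± 0.03 was called by edgeR and not by DESeq2 (adjusted p = 0.427). The part of blood left in the spots was not tested. With mitochondrial and haemoglobin UMIs left out of every total, 549 genes rose and 490 fell.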

How the data were processed

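Visium sections of Wistar liver were sequenced on a NovaSeq. Per the methods, reads were mapped to a custom rat reference 6.0.98 with Space Ranger 1.1.0, and nuclei were processed with Cell Ranger 3.1.0. The authors deposited UMI counts per gene and spot or nucleus, without normalization. The members and gene lists were chosen with earlier results of these data known. Genes are named by the files, with 32883 rows, and the row with the most UMIs was used for a duplicated symbol.

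The summed counts of Kupffer-rich and Kupffer-poor spots held 3390629 and 10110228 UMIs for section A, 3683150 and 9931879 for section B. They were tested in R 4.3.3 with edgeR 4.0.16 (filterByExpr, TMM, section as a block, robust quasi-likelihood test, Benjamini-Hochberg adjustment at 0.05) and, as an alternative, DESeq2 1.42.0, which gave no adjusted p for 868 genes. Section numbers pair the sums, since both come from the same tissue. Fold changes per section have 0.5 UMIs added. In the main comparison the spread between the sections, which may be technical, was estimated over all genes together. The p-values of that comparison thus do not measure each gene's own spread. Within zones the spread was shared by 6780 of 6881 genes, and between zones Marco did not share that of Clec4f. The section steps were tested on simulated data. Nuclei had at least 1000 UMIs, at most 10% mitochondrial UMIs and at least 3 markers of their class, counted in CPM over 4 libraries. Named genes were up to 4 per list with the largest change called in the same direction in both sections, the 10 highest, the 10 lowest and the 10 highest genes with more in nuclei other than Kupffer-like, all with at least 100 UMIs, and list members needed for a range. Genes described as on few UMIs and not under this rule were named after their values were seen. Alternatives were other tests, scalings, filters, depths, score genes, shares of spots and references. The spots' positions, histology and the cell libraries of DA and LEW rats were not used here.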

Additional observations from a re-analysis of the deposited data

How the results depend on the processing

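Leaving out either section gave fold changes without a test, since no spread remains with 1 section. None of the 212 fold changes of named genes and of the 7 Kupffer genes by zone turned its direction. For the named genes this was fixed in advance, since they were chosen for the same direction in both sections. Without section A 36 of 106 moved by more than 1 SD of the section values, and without section B 27 of 106. An SD of only 2 values is set by the gap between them, so genes whose sections agree closely pass it most easily. These counts thus do not measure how far a gene depends on a section. Several other alternatives refit the same sums for genes named for called changes, so few fold changes could turn there. Of 1717 such fold changes under the other alternatives 1710 kept their direction. Those that turned were Glul (1.13 with the reference matched on zone score, from 93 and 112 reference spots, and 0.83 within zones), Hamp (-0.025 against the 30th to 90th percentile, -0.19 with the matched reference and -0.024 within zones) and Dusp1 (-0.032 and -0.030 with the last 2). The count of 576 genes higher and 504 lower moved with several settings. It was 143 and 124 with DESeq2, and with both tools together, and 356 and 201 with no replicate block for the sections. It was 355 and 294 against the 30th to 90th percentile, 372 and 301 when only the C1q genes ranked the spots, 162 and 119 with the zone-matched reference and 188 and 157 within zones, while 285 were lower without TMM. With the zone-matched reference 5 periportal genes rose and 4 pericentral genes fell, and within zones 8 and 7. Of the other macrophage genes 19 rose, and 14 to 19 did under the alternatives, and all 7 Kupffer genes stayed higher in periportal spots under every alternative run. The share of Kupffer-rich spots in the periportal zone moved to 59.7% and 61.6% with the C1q genes alone, and to 65.8% in section B when spots were thinned to 5000 UMIs. Causes were not tested. Genes with under 100 UMIs over the 4 sums are at the limit of this depth.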

Other observations

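Several further gene groups, some of which share genes with the lists above, were read in the same spots. Of 13 iron and heme genes tested 7 rose and none fell, beside 6.44% and 5.63% of all genes tested. Of those that rose, Cd163, Hmox1 and Slc40a1 were already counted above among the further Kupffer cell genes. Slc40a1, the iron exporter, had 0.569 and 0.671 UMIs per 10000 in the Kupffer-rich spots of sections A and B and 0.337 and 0.377 in the Kupffer-poor spots, a log2 fold change of 0.76 ± 0.09. Slc48a1, which carries heme out of lysosomes, rose by 0.48 ± 0.16 without a DESeq2 call, and Ftl1, a ferritin chain, did not pass the test at -0.027. Of 15 lysosomal genes 9 rose and 1 fell, led by Cd63 at 1.04 ± 0.10, the cathepsin Ctsz at 0.90 ± 0.09 and Grn, progranulin, at 0.87 ± 0.05. Lipa, the lysosomal lipase, was the one that fell, by 0.24 on the log2 scale and without a DESeq2 call.

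The complement genes went apart. Cfp, properdin, had 0.844 and 0.882 UMIs per 10000 against 0.361 and 0.368, a log2 fold change of 1.21 ± 0.08, and C6, a part of the membrane attack complex, 1.14 and 1.51 against 0.733 and 0.730, a change of 0.82 ± 0.06. Both were highest in Kupffer-like nuclei among the sets with at least 50 nuclei. Of the other 13 complement genes tested none rose, and 5 fell by 0.11 to 0.35 on the log2 scale without a DESeq2 call, among them Mbl2 and C1r. Pltp, which transfers phospholipids between lipoproteins, rose by 1.24 ± 0.08 and was highest in Kupffer-like nuclei at 166 CPM. Apoa2, an apolipoprotein of HDL, had 29.0 and 25.7 against 45.2 and 42.4 and fell by 0.72 ± 0.02, while Apoa1 rose by 0.32 ± 0.02. They belong to 15 general hepatocyte genes tested, of which 5 rose and 3 fell with a median log2 fold change of 0.033. Hamp, the iron hormone hepcidin, had 11.4 and 11.2 UMIs per 10000 against 9.83 and 9.30, a change of 0.20 ± 0.03 that was -0.024 within zones.

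Of 8 immediate early genes tested 3 rose, and of 7 acute-phase genes 4 rose and 2 fell. Orm1, already counted above as a periportal gene, was the only gene of both lists that DESeq2 also called. Of 10 genes of signals that shape the macrophage niche 3 rose and 1 fell, none with a DESeq2 call. Among these Id1, a target of BMP signalling, and Tgfb1 rose by 1.00 and 0.99 on the log2 scale, and Ccl24 fell by 0.63.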
